A study of Mus musculus with 8 samples.

Results

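The transcripts of 9 genes of the NEDD4 system were examined in Th17 cells by RNA seq: the ubiquitin ligases Itch, Nedd4, Nedd4l, Wwp1, Wwp2, Smurf1 and Smurf2, and the adaptors Ndfip1 and Ndfip2. They were taken by gene symbol from the 22829 genes listed, and each symbol matched 1 gene. By their labels all 8 samples were Th17 cells made from T cells of ROR-γt-/- mice, so the endogenous ROR-γt, the transcription factor that directs the Th17 program, was missing in both groups. In 4 samples, called WT below, the cells had been given WT-ROR-γt by lentivirus, and in the other 4, called K187R, they had been given K187R-ROR-γt, a SUMOylation-defective form. The deposited design text speaks instead of wild-type and mutant mice, and the description of the groups here follows the labels of the samples and the study's methods. By those methods both groups were splenic CD4+ T cells grown under Th17-inducing conditions. The age of the mice is not given in the sources used here, and neither is the share of cells that took up the virus, so a sample may mix transduced and untransduced cells. The labels number the samples 1 to 4 within each group. Nothing in the labels says that they came from separate cultures or animals, and p-values then measure only the spread between these samples, which may be technical.

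The NEDD4 family of ubiquitin ligases shares a C2 domain, several WW domains and a catalytic HECT domain. The WW domains bind short proline-rich PY motifs in other proteins, and the HECT domain takes ubiquitin from an E2 enzyme onto a cysteine of its own before passing it to the substrate. Ndfip1 and Ndfip2 are membrane proteins with PY motifs that recruit and activate these ligases. In T cells the family is known for restraining activation and inflammation. Itch, named after the itching of mice that lack it, marks proteins such as JunB and ROR-γt with ubiquitin. The comparison of the groups asked whether the transcripts of this system differed between cells with a form of ROR-γt that can be SUMOylated and cells with a form that cannot.

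The values are normalized counts, the reads counted on a gene divided by a size factor for the sample. Between 52456804 and 74676721 reads per sample fell on genes, and the smallest count taken as detectable, 3 reads, equalled 2.54 to 3.56 normalized counts, which allows for counting error and for no other error. The 5 T helper markers (Cd3e, Cd3g, Cd4, Trac, Cd28) were detected in every sample, with summed normalized counts of 113002 to 132345 in WT and 115743 to 131931 in K187R, and the 6 Th17 markers summed to 30381 to 48446 and 40312 to 53727. None of the 4 myeloid markers (Lyz2, Itgam, Adgre1, Csf1r) was at 0. Their sum was 19574, 48048, 19570 and 58917 in WT replicates 1 to 4 and 34057, 41684, 45116 and 62028 in K187R replicates 1 to 4, most of it Lyz2. In bulk samples such as these, fewer cells of a type and less RNA per cell cannot be told apart.

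The ligases of this family resemble each other, so their coding sequences were compared to see whether reads could be assigned to the wrong member. Over the 36 pairs of members, the longest stretch identical in both coding sequences was between 9 and 23 bases, shorter than the reads of 75 bases. The stretches below show this for pairs of ligases of the same branch. Each is a window of 75 coding bases, 5′ to 3′ on the strand of the gene, from the GENCODE M21 transcripts on GRCm38, and the capitals mark the longest stretch that the pair shares. The Itch and Wwp1 windows lie in exon 18 of Itch (chr2:155209062-155209136, plus strand) and exon 16 of Wwp1 (chr4:19631128-19631202, minus strand), and 62 of the 75 bases are identical.
Itch: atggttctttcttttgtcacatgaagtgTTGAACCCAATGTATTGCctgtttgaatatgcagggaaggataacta
Wwp1: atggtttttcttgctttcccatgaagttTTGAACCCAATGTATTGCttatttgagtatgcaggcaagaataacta
The Wwp1 and Wwp2 windows lie in exon 18 of Wwp1 (chr4:19627682-19627756, minus strand) and exon 19 of Wwp2 (chr8:107554450-107554524, plus strand), with 49 of 75 bases identical.
Wwp1: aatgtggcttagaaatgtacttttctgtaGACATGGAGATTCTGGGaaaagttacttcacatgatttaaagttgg
Wwp2: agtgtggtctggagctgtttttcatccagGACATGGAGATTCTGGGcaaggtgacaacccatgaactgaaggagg
The Smurf1 and Smurf2 windows lie in exon 19 of Smurf1 (chr5:144879377-144879451, minus strand) and exon 19 of Smurf2 (chr11:106822685-106822759, minus strand), with 61 of 75 bases identical.
Smurf1: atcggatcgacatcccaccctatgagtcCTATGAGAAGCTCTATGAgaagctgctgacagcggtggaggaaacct
Smurf2: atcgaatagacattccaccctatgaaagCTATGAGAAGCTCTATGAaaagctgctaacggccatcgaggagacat
No window of 75 bases was therefore shared between the coding sequences of members. The whole transcripts of Wwp2, Smurf1 and Smurf2 shared 0% of their 75-base windows with other genes, and those of Itch, Nedd4, Ndfip1 and Nedd4l shared 0.402%, 0.354%, 0.627% and 0.725%. The genes that share these windows with Itch, Ndfip1 and Nedd4 include abundant ones, with counts of up to 255% of those of Itch for Usp34, 290% of those of Ndfip1 for Gnai2 and 1475% of those of Nedd4 for Mgea5, and how reads matching several genes were counted is not given in the sources used here. The shares of windows were higher for Wwp1, with 3.03%, all of it shared with Gm13416, and for Ndfip2, with 4.07%, shared with Gm10268, Gm11531, Gm15843 and Gm16259. The counts of Gm13416 were at most 1.66% of those of Wwp1 in a sample, and those of the genes sharing windows with Ndfip2 were at most 0.508% each. Whether reads were counted by strand is not given in the sources used here, and 4.79% of the exon bases of Ndfip2 lie opposite to Gm16259, so reads of that overlap may belong to either gene.

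All 9 members were well detected, with means over the 8 samples between 1447 normalized counts for Nedd4l and 13406 for Ndfip1, and none was low enough to be left out. Levels of different genes were compared per kilobase of merged exons. On this scale Ndfip1 was the most abundant member, at 2118 ± 130 normalized counts per kilobase (SD, n = 8), and Nedd4l the least, at 81.9 ± 3.96 (SD, n = 8). Between them the order was Smurf2 with 1228 ± 108, Smurf1 with 1197 ± 77.1, Itch with 937 ± 101, Wwp2 with 825 ± 125, Wwp1 with 640 ± 63.5, Ndfip2 with 303 ± 46.4 and Nedd4 with 219 ± 35.7 (SD, n = 8 for each). Not every step of this order held in every sample. The ranges of Smurf2 and Smurf1 overlapped, with Smurf2 higher in 4 of 8 samples, and so did those of Itch and Wwp2 (5 of 8), Wwp2 and Wwp1 (6 of 8), and Ndfip2 and Nedd4 (6 of 8). Ndfip1 stood above Smurf2, Smurf1 above Itch, Wwp1 above Ndfip2 and Nedd4 above Nedd4l in 8 of 8 samples, with no overlap. The adaptors thus lay far apart, Ndfip1 at the top and Ndfip2 below the ligases Itch, Wwp1, Wwp2, Smurf1 and Smurf2. The length of a gene was the same for all samples, so agreement over samples does not test it. Merged exons cover all annotated transcripts and can be longer than the transcripts expressed. Without division by length, the mean of Itch (9098 normalized counts) was above that of Smurf1 (7582).

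**Figure D1:**
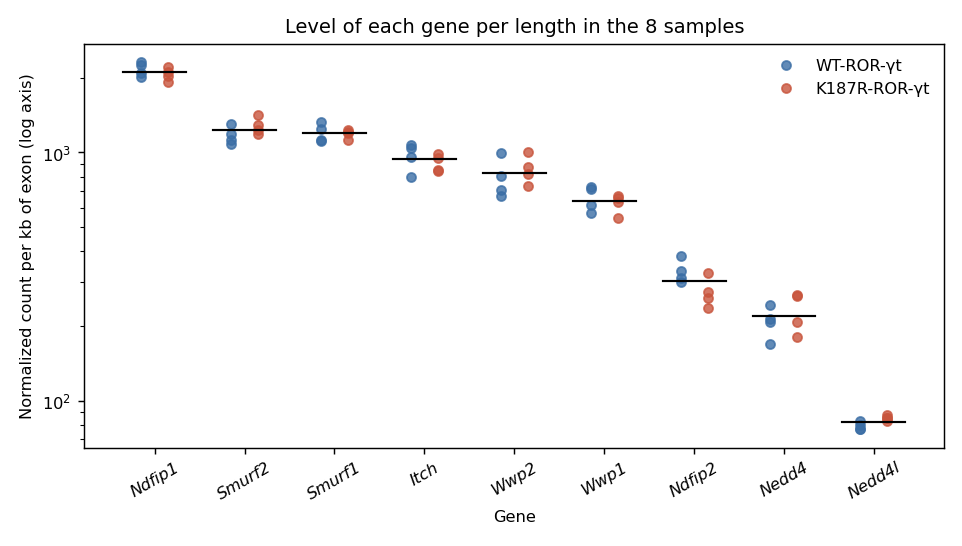
Normalized count per kilobase of merged exons (log axis) of each gene in the 4 WT-ROR-γt and 4 K187R-ROR-γt samples, one point per sample, with the mean over the 8 samples as a line. Ndfip1 (2118) lies above all other members and Nedd4l (81.9) below them, and the 2 groups lie at similar heights for each gene.

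No member differed between WT and K187R at an adjusted p-value under 0.05 (limma on log2(normalized count + 1), Benjamini-Hochberg over 16982 genes), and neither did any other gene, so that 0% of the genes tested were called. The adjusted p-values of the members ranged from 0.921 to 0.994. At an unadjusted p-value under 0.05 there was 1 member, Ndfip2, beside 4.39% of all genes tested. The groups overlapped for all 9 members, while 2.46% of all genes tested had groups that did not overlap in one direction or the other. K187R minus WT, the log2 fold change, was above 0 for 4 members and below 0 for 5, with a median of -0.01 beside -0.01 over all genes tested. For 3 members (Nedd4l, Smurf2 and Ndfip2) the difference was larger than the SD within the groups. The share of all genes tested for which this held is not given here, so this count is a description only. Each member was also tested alone by an exact two-sided permutation test over the 8 samples, in which 70 regroupings allow no p below 0.0286.

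**Figure D2:**
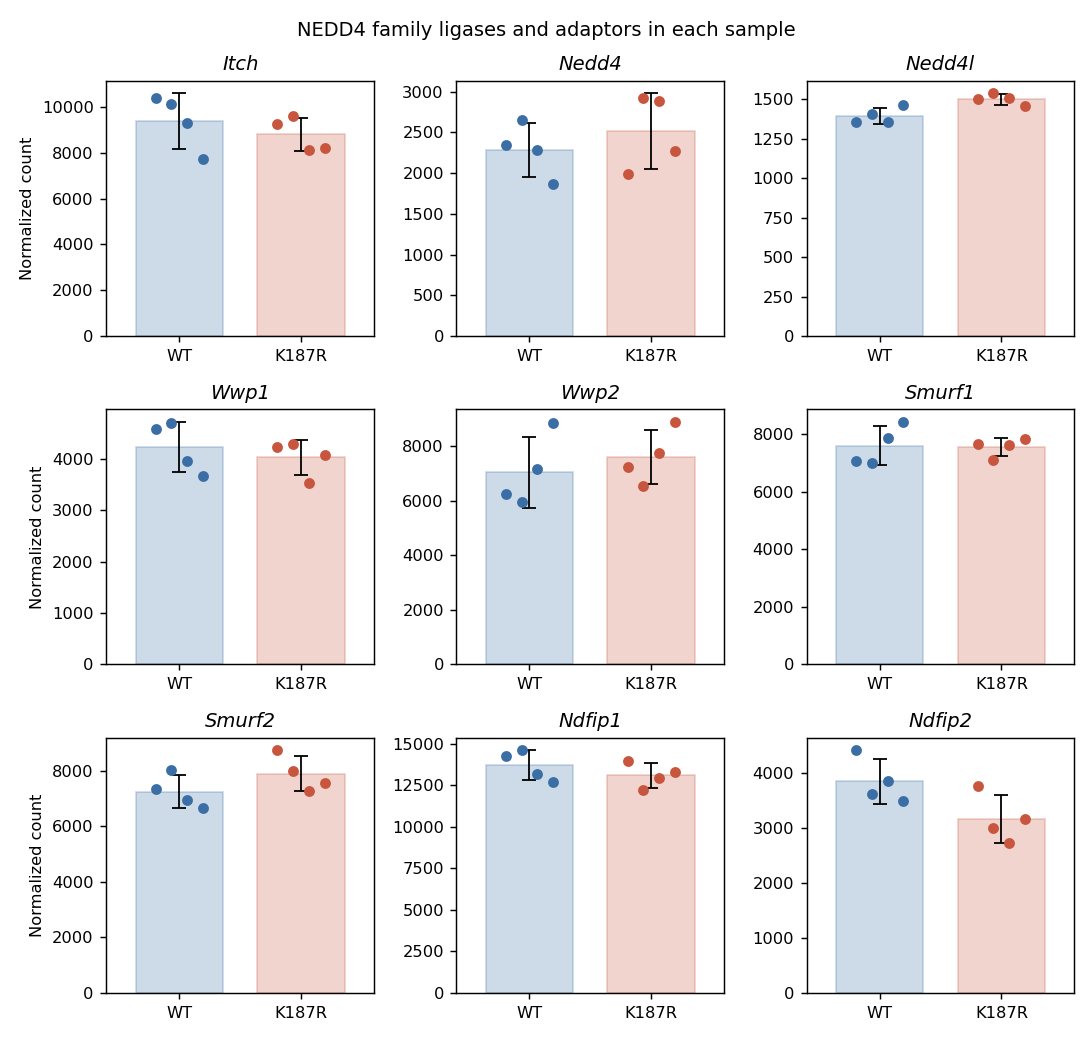
Normalized counts of the 9 members (y axis, from 0) in WT-ROR-γt and K187R-ROR-γt samples, with points for the samples in the order of replicates 1 to 4, bars for the group mean and error bars for the SD (n = 4). The points of the groups overlap in all 9 panels, and the means lie furthest apart, relative to their level, for Ndfip2 (3841 against 3159).

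Itch (ENSMUSG00000027598, chr2:155133509-155226855 of GRCm38, plus strand), the ligase that acts on ROR-γt, had 10417, 10144, 9287 and 7714 normalized counts in WT replicates 1 to 4 and 9255, 9594, 8146 and 8228 in K187R replicates 1 to 4. The highest and the lowest sample were both WT, replicates 1 and 4, and enclosed all K187R samples. The means were 9391 ± 1217 in WT and 8806 ± 729 in K187R (SD, n = 4 each). Itch had a log2 fold change of -0.09 (standard error 0.106, 95% interval -0.32 to 0.15, limma adjusted p = 0.928), and the exact permutation p was 0.429. In linear terms the interval ran from 0.799-fold to 1.11-fold. The log2 fold change moved with single samples, from -0.18 without WT replicate 4 (limma unadjusted p = 0.0609) to -0.03 without WT replicate 1. The interval from all 8 samples includes no change, and a change in Itch transcripts of a size within it was neither shown nor excluded.

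Wwp1 (ENSMUSG00000041058, chr4:19608303-19708993, minus strand) and Wwp2 (ENSMUSG00000031930, chr8:107436365-107558595, plus strand) are the ligases closest to Itch in domain structure. Wwp1 had 4581, 4702, 3964 and 3667 normalized counts in WT and 4222, 4290, 3527 and 4076 in K187R, with a log2 fold change of -0.07 (standard error 0.102, 95% interval -0.30 to 0.16, limma adjusted p = 0.938). Its highest values were those of WT replicates 1 and 2, and its lowest that of K187R replicate 3. Wwp2 had 6242, 5939, 7162 and 8825 normalized counts in WT and 7241, 6524, 7730 and 8890 in K187R, with a log2 fold change of 0.12 (standard error 0.137, 95% interval -0.19 to 0.43, limma adjusted p = 0.927). Both samples numbered 4 stood above the other 6 for Wwp2, whatever the form of ROR-γt. The exact permutation p was 0.543 for Wwp1 and 0.429 for Wwp2. With single samples left out, Wwp1 ranged from -0.13 (without WT replicate 4) to -0.004 (without K187R replicate 3) and Wwp2 from 0.04 (without K187R replicate 4) to 0.23 (without WT replicate 4).

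Nedd4 (ENSMUSG00000032216, chr9:72662346-72749852, plus strand), the founding member of the family and in T cells a promoter of activation, had 2341, 2656, 2283 and 1861 normalized counts in WT and 1987, 2923, 2893 and 2271 in K187R. K187R replicates 2 and 3 were the highest samples and WT replicate 4 the lowest, but K187R replicate 1 was below 3 of the 4 WT samples. Nedd4 had a log2 fold change of 0.13 (standard error 0.151, 95% interval -0.21 to 0.47, limma adjusted p = 0.925, exact permutation p = 0.486), the widest interval on its upper side among the members, and it ranged from 0.04 without WT replicate 4 to 0.24 without K187R replicate 1. Nedd4l (ENSMUSG00000024589, chr18:64887705-65217828, plus strand), its closest relative, is known for removing sodium channels from the cell surface. It had 1353, 1404, 1354 and 1462 normalized counts in WT and 1501, 1538, 1505 and 1455 in K187R. Of the K187R samples, 3 lay above all WT samples, and replicate 4 lay between the WT values. The means were 1393 ± 51.6 and 1500.0 ± 34.0 (SD, n = 4 each), and the log2 fold change was 0.11 (standard error 0.070, 95% interval -0.05 to 0.27, limma adjusted p = 0.921, exact permutation p = 0.0571). The spread of Nedd4l within the groups was smaller than that of all but 0.642% of the genes tested.

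Smurf1 (ENSMUSG00000038780, chr5:144876495-144965847, minus strand) and Smurf2 (ENSMUSG00000018363, chr11:106820066-106920715, minus strand) regulate TGF-β and BMP signalling by marking Smad proteins and receptors, and TGF-β is one of the cytokines that drive Th17 differentiation. Smurf1 had 7090, 7016, 7866 and 8446 normalized counts in WT and 7661, 7122, 7622 and 7828 in K187R, so that the K187R samples lay within the range of the WT samples. Its log2 fold change was -0.01 (standard error 0.077, 95% interval -0.18 to 0.17, limma adjusted p = 0.994, exact permutation p = 0.914). For Smurf1 the sign depended on the samples used, since it turned positive, at 0.05, without WT replicate 4. Smurf2 had 7345, 8032, 6936 and 6657 normalized counts in WT and 8739, 7988, 7285 and 7566 in K187R. Only K187R replicate 1 exceeded all WT samples. Smurf2 had a log2 fold change of 0.12 (standard error 0.084, 95% interval -0.07 to 0.31, limma adjusted p = 0.921, exact permutation p = 0.229).

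The adaptor Ndfip1 (ENSMUSG00000024425, chr18:38410396-38465303, plus strand) had 14279, 14619, 13201 and 12723 normalized counts in WT and 13991, 12206, 12914 and 13315 in K187R. The highest samples were WT replicates 1 and 2 and the lowest was K187R replicate 2, with the others mixed. Ndfip1 had a log2 fold change of -0.06 (standard error 0.073, 95% interval -0.23 to 0.10, limma adjusted p = 0.925, exact permutation p = 0.371).

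Ndfip2 (ENSMUSG00000053253, chr14:105258573-105309298, plus strand) showed the largest difference among the members. It had 4411, 3610, 3855 and 3487 normalized counts in WT and 3761, 2991, 2724 and 3162 in K187R. The lowest 3 samples were K187R and the highest 2 were WT, but K187R replicate 1 lay above WT replicates 2 and 4. The means were 3841 ± 410 in WT and 3159 ± 439 in K187R (SD, n = 4 each). K187R minus WT was -0.29 on the log2 scale (standard error 0.113, 95% interval -0.54 to -0.03), which is 0.820-fold. This did not pass the correction for multiple tests (limma p = 0.0318, adjusted p = 0.921), and the exact permutation p was 0.0857. Without WT replicate 1 the log2 fold change was -0.22 and without K187R replicate 3 it was -0.22, with unadjusted limma p-values of 0.0929 and 0.0921. The summed myeloid markers were lowest in WT replicates 1 and 3, the samples with the highest Ndfip2. Their part in the result was not tested. Ndfip1 and Ndfip2, which carry out the same task for the ligases, had log2 fold changes of the same sign, and the difference between them was not tested.

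**Figure D3:**
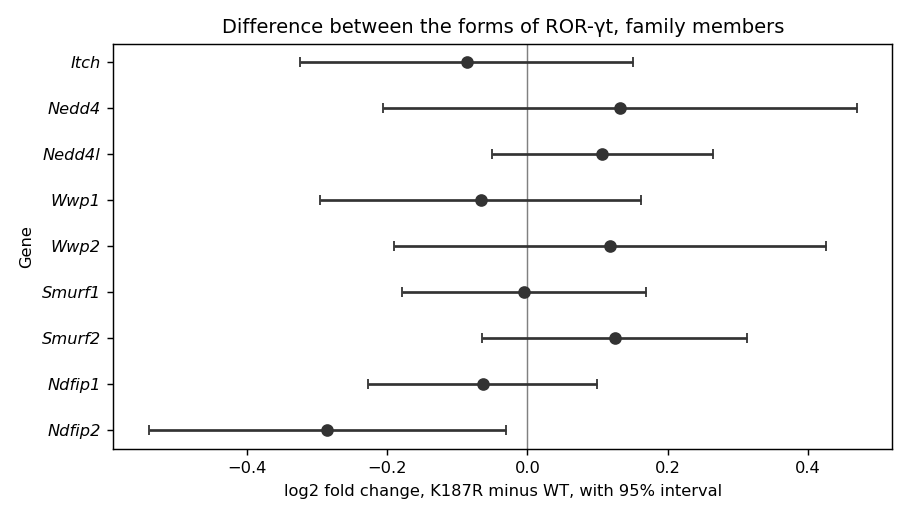
Log2 fold change (x axis, K187R minus WT on the log2(normalized count + 1) scale) of each member (y axis), as points with 95% intervals from limma (n = 4 per group). The intervals cross 0 for 8 of the 9 members, and that of Ndfip2 runs from -0.54 to -0.03 before any correction for multiple tests.

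The main split of the 8 samples crossed the forms of ROR-γt. Clustering over all genes tested but the members gave 3 sets of samples, each with samples of both groups: WT replicates 1 and 3 with K187R replicate 1 (set 1), WT replicate 2 with K187R replicates 2 and 3 (set 2), and the replicates 4 of both groups (set 3). The labels give no batch that corresponds to these sets. For 8 of the 9 members the range of the set means on the log2 scale was larger than the difference between the forms, which was also so for 89.4% of all genes tested. The exception was Nedd4l. The range of the set means was 0.46 for Nedd4, 0.40 for Wwp2, 0.37 for Ndfip2 and 0.27 for Itch, against 0.33 for the median gene. The sets come from the same samples, so these ranges are a description and were not tested.

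Set 3 had the highest mean of Wwp2, at 8857 normalized counts against 6882 in set 1 and 6731 in set 2, and the lowest of Itch, at 7971 against 9653 and 9295. Markers of other cell types also set these samples, replicates 4 of both groups, apart. The CD8 markers (Cd8a, Cd8b1) summed to 1025 and 1141 normalized counts there and to 387 to 556 in the other 6 samples. The erythroid markers (Hba-a1, Hbb-bs) summed to 37.5 and 53.3 against 0 to 4.21. The sum of the myeloid markers was highest there, at 58917 and 62028, most of it Lyz2 (54522 and 57778). Itgam was also highest there, but Csf1r and Adgre1 were not. Csf1r was 2598 and 2423 there against 5074 in K187R replicate 3, and Adgre1 was 662 and 679 against 863. The part of these cell types in the levels of Wwp2 and Itch was not tested. Without both samples numbered 4 the log2 fold changes were -0.15 for Itch, 0.15 for Wwp2 and -0.33 for Ndfip2, and no member was called. Nedd4 was highest in set 2, at 2824 normalized counts against 2204 in set 1 and 2066 in set 3, and Ndfip2 was highest in set 1, at 4009 against 3108 and 3324. The members did not move together from set to set, and ligases of similar domain structure, Itch and Wwp2, moved in opposite directions between sets 1 and 3. Within the sets, the mean of Ndfip2 was lower in K187R than in WT in each, by differences of -0.13, -0.34 and -0.14 on the log2 scale in sets 1, 2 and 3. Wwp2 was higher in K187R in each set, by 0.12, 0.26 and 0.01. For Itch the differences were -0.09, -0.20 and 0.09, and for Nedd4 they were -0.22, 0.13 and 0.29. The sign of the difference thus varied between sets for both of these. The share of all genes with the same sign in every set is not given here, so the signs by set are a description only. Fitting the set as a factor in limma gave Ndfip2 a log2 fold change of -0.21 (adjusted p = 0.541).

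**Figure D4:**
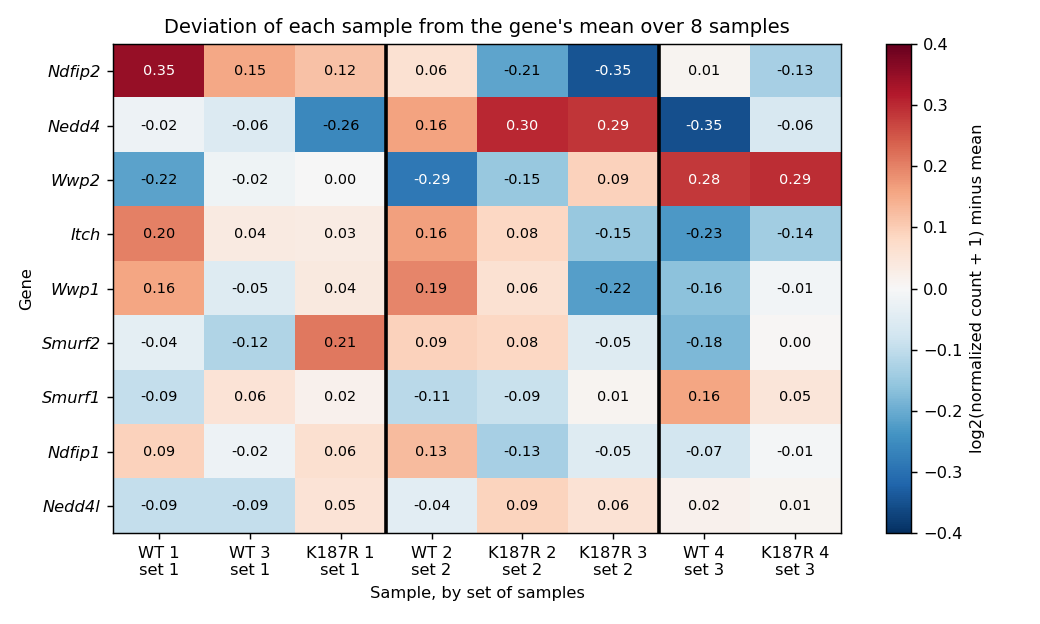
Deviation of each sample (x axis, ordered by set, with lines between sets) from the mean over the 8 samples of each member (y axis, ordered by range), in log2(normalized count + 1). Wwp2 is high in both samples of set 3 (0.28 and 0.29), Nedd4 in the K187R samples of set 2 (0.30 and 0.29), and Nedd4l stays within 0.1 of its mean in all 8 samples.

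The genes with the profile most like that of Itch over the 8 samples, by the root mean square distance between centred log2 profiles, were Kdm4c (0.0228), Blzf1 (0.0250) and Smc6 (0.0274), out of 12134 genes that averaged 100 normalized counts or more, for which the median distance was 0.212. For Ndfip2, the member with the widest range, the nearest 3 included Glce (0.0450) and Tigd2 (0.0591), beside a median distance of 0.248. No other member of the family was among these.

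The enzymes, adaptors, regulators and substrates around the family were examined by lists chosen from textbook knowledge. Of 65 genes tested, 0 were called by limma at an adjusted p-value under 0.05, and 3 had an unadjusted p-value under 0.05, a share near the 4.39% of all genes tested. These were Txnip and Prkcq, with values higher in K187R, and Cblb, with values lower in K187R. Values of log2 fold change were above 0 for 36 and below 0 for 29, with a median of 0.01. Of the other HECT ligases 19 were tested, with 11 above 0, 8 below and a median of 0.01. The largest difference in this list was that of Hecw2, at 81.0 ± 22.0 against 97.9 ± 21.1 normalized counts and a log2 fold change of 0.29 (95% interval -0.28 to 0.86, limma adjusted p = 0.922).

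The list of arrestin-domain proteins held Arrdc1 to Arrdc4 and Txnip, which like the Ndfips carry PY motifs, and also Arrb1 and Arrb2. Its log2 fold changes were above 0 for 7 of 7 genes, with a median of 0.17 beside -0.01 over all genes tested. None was called. Txnip, an arrestin-domain protein that limits glucose uptake and is itself degraded through Itch, had 9293, 11078, 9370 and 9652 normalized counts in WT and 11283, 12369, 12708 and 10431 in K187R. Here 3 of the 4 K187R samples lay above all WT samples, and K187R replicate 4 lay below WT replicate 2. The log2 fold change of Txnip was 0.25 (standard error 0.088, 95% interval 0.05 to 0.45, limma adjusted p = 0.921), with an unadjusted p of 0.0193 and an exact permutation p of 0.0571. Without strand, the 19.4% of its exon bases opposite to Gm15441 cannot be assigned to either gene. Arrdc4 differed most in this list, with 281 ± 66.4 against 337 ± 48.9 normalized counts and a log2 fold change of 0.28 (95% interval -0.14 to 0.69).

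Cblb encodes Cbl-b, a RING ligase of T cell tolerance that works with Itch and is itself a target of Itch and Nedd4. It had 17610, 18735, 17658 and 16530 normalized counts in WT replicates 1 to 4 and 13817, 14868, 14938 and 13986 in K187R replicates 1 to 4. Every K187R sample lay below every WT sample, as for 0.989% of all genes tested in this direction. Cblb was the only one of the 65 genes without overlap, beside 2.46% of all genes tested without overlap in either direction. The means were 17633 ± 900.1 and 14402 ± 583 (SD, n = 4 each), and K187R minus WT was -0.29 on the log2 scale (standard error 0.065, 95% interval -0.44 to -0.15). Limma gave an unadjusted p of 0.00138 and an adjusted p of 0.921, and the exact permutation p was 0.0286, the smallest that this design allows. DESeq2 on the recovered reads, which called 0.193% of 13970 genes, called Cblb, with a log2 fold change of -0.29 and an adjusted p of 0.0316. It called none of the members and no other gene of these lists. The adjusted p of Cblb lay between 0.000631 and 0.9999 over the 23 alternatives, and it was under 0.05 in 2 of them, both with DESeq2.

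The substrates of the ligases were divided, with 8 of 15 tested above 0 and 7 below and a median of 0.00, and Cblb differed most among them too. Prkcq, the kinase PKC-θ downstream of the T cell receptor, had means of 15168 ± 716 normalized counts in WT and 16928 ± 846 in K187R (SD, n = 4 each). Its log2 fold change was 0.16 (95% interval 0.01 to 0.31, limma unadjusted p = 0.0405, adjusted p = 0.921), and its groups overlapped. Junb, which encodes the AP-1 factor JunB, had 15941 ± 2071 and 15653 ± 1874 normalized counts, a log2 fold change of -0.02 (95% interval -0.28 to 0.23).

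**Figure D5:**
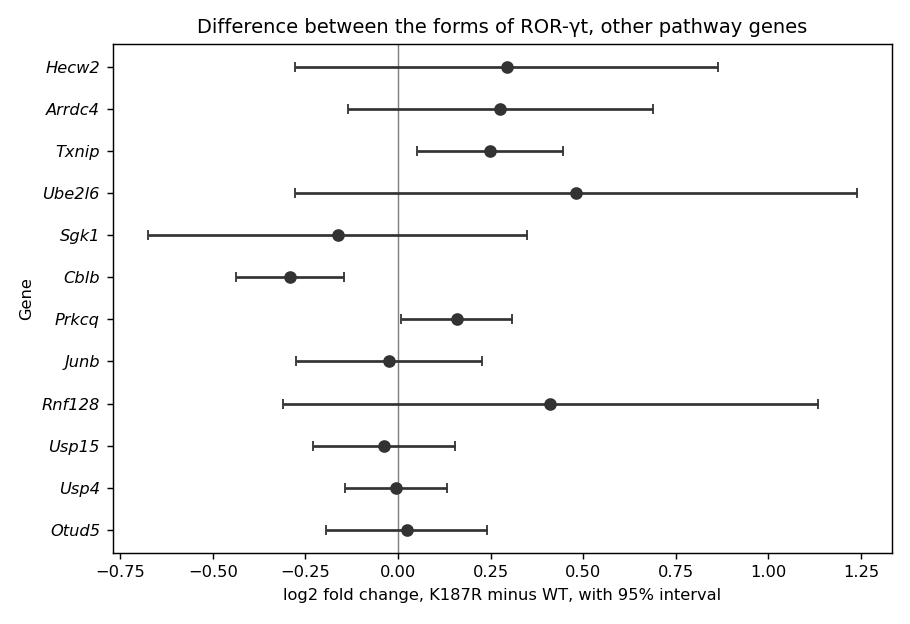
Log2 fold change (x axis, K187R minus WT on the log2(normalized count + 1) scale) with 95% intervals from limma (n = 4 per group) for the named genes around the family (y axis). The intervals of Cblb (-0.44 to -0.15), Txnip (0.05 to 0.45) and Prkcq (0.01 to 0.31) do not reach 0 before correction for multiple tests, and those of the other 9 genes do.

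Among the other ligases of T cell tolerance 4 of 6 were above 0 and 2 below, with a median of 0.02, and the largest difference was that of Rnf128, the ligase GRAIL, at 705 ± 326 against 875 ± 205 normalized counts and a log2 fold change of 0.41 (95% interval -0.31 to 1.13). The E1 and E2 enzymes had 3 of 7 above 0 and a median of -0.04. Ube2l6 differed most among them, at 165 ± 67.7 against 234 ± 95.04 normalized counts and a log2 fold change of 0.48 (95% interval -0.28 to 1.24). The regulators of the ligases had 2 of 9 above 0 and a median of -0.04. Sgk1, a kinase that phosphorylates Nedd4l and promotes the Th17 program, had 9643, 4961, 8893 and 5460 normalized counts in WT and 8148, 5879, 5443 and 5668 in K187R. The highest 3 values of Sgk1 were those of the samples of set 1. Its log2 fold change was -0.16 (95% interval -0.67 to 0.35, limma adjusted p = 0.933). Of the deubiquitinases, which remove ubiquitin from ROR-γt, Usp4, Otud5 and Usp15 were tested, with log2 fold changes of -0.01, 0.02 and -0.04. The interval of Usp4, -0.14 to 0.13, was the narrowest given here.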

How the data were processed

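RNA seq was analysed in 8 mouse Th17 samples, 4 with WT-ROR-γt and 4 with K187R-ROR-γt, grouped by the labels. Reads were trimmed (Cutadapt), aligned to GRCm38 (HiSat2) and counted per gene of GENCODE M15 (featureCounts) by the authors. The labels name a TruSeq library kit and the study's methods a KAPA kit. What was deposited is 1 signal value per gene and sample, the read count over the size factor of the sample (0.842 to 1.18, as DESeq2 gives). Whole reads could be recovered for 100% of the values, within 0.1 of a read.

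The main test was limma (3.58.1, R 4.3.3; lmFit, eBayes with a trend) on log2(normalized count + 1), which understates changes of low genes, for 16982 genes whose mean reached 10, with Benjamini-Hochberg adjustment and a threshold of 0.05. Intervals are 95% intervals from this fit. The alternatives tried included pseudocounts of 0.5 and 5, keeping all genes listed, requiring a mean of 50, median centring, TMM, no trend, sample weights, sample set, replicate block, each sample left out, edgeR 4.0.16 and DESeq2 1.42.0 on the recovered reads, and, chosen after seeing the data, leaving out both samples numbered 4. The code was tested on simulated data.

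Members and gene lists were chosen with earlier results of these data known. Named were all members, any gene called, the gene with the largest change in each list, Junb, Sgk1, Cblb, Usp4, Otud5 and Txnip, and the 3 genes most like Itch and most like the member with the widest range; Prkcq was added after its values were seen. Some results that this rule takes are not reported here. Coordinates, exon lengths and sequences are from GENCODE M21 on GRCm38, so lengths can differ from those of M15. Hecw1 and 5 Usp17 genes of the lists were not among the genes listed.

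Further markers fixed were those of CD8 T cells (summed normalized counts of 387 to 1141), NK cells (1.74 to 30.5) and erythroid cells (0 to 53.3).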

Additional observations from a re-analysis of the deposited data

How the results depend on the processing

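Under 23 alternatives no member of the family was called, and the lowest adjusted p was that of Ndfip2 in DESeq2 with the replicate block (0.0667, log2 fold change -0.29). The number of all genes called moved from 0 to 27 in DESeq2, 175 in DESeq2 with the replicate block, 1 with the sample set as a factor, 3 with sample weights and 4 without both samples numbered 4. It lay between 0 and 4 when each sample was left out, the 4 arising without WT replicate 4, and was 0 in the others, edgeR included. Unadjusted p-values under 0.05 numbered 746 in the reported fit, 729 in edgeR, 3168 with sample weights and between 329 (without WT replicate 1) and 2181 (without WT replicate 4) when each sample was left out, so this count and the share of 4.39% depended on single samples. Of the other genes of the pathway, DESeq2 called 1 without and 1 with the replicate block, in both cases Cblb, and no other alternative called any. The sign held in every alternative for 8 members. That of Smurf1 turned positive, at 0.0091 with the sample set as a factor, 0.0120 with sample weights and 0.0293 without both samples numbered 4, and its range when each sample was left out was -0.0428 to 0.0465. The cause was not tested. The log2 fold change of Ndfip2 lay between -0.37 and -0.21, with an unadjusted p under 0.05 in 17 of the 23 alternatives. These alternatives reuse the same 8 samples or some of them, so this count is not independent support. Leaving out each sample gave Ndfip2 a log2 fold change between -0.37 and -0.22, with 3 of 8 unadjusted p-values under 0.05. By the same steps Smurf2 lay between 0.07 (without K187R replicate 1) and 0.18 (without WT replicate 2) and Ndfip1 between -0.10 and -0.03 (without K187R replicate 2).

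Same-numbered samples correlated in their deviations at 0.59, 0.66, -0.09 and 0.63 for numbers 1 to 4, so 3 of the 4 numbers went together and number 3 did not, short of the criterion that all 4 do for treating the numbers as pairs. WT replicates 1, 2 and 4 correlated best with their own number and WT replicate 3 did not. The replicate block in limma left 0 genes called, with 2046 unadjusted p-values under 0.05 instead of 746. Between same-numbered samples Ndfip2 was lower in K187R for 4 of 4 numbers (-0.23, -0.27, -0.50 and -0.14 on the log2 scale) and Wwp2 was higher for 4 of 4 (0.21, 0.14, 0.11 and 0.01). For each of the other members the sign differed between numbers. The share of all genes with the same sign in 4 of 4 is not given here, so these counts are a description only. The unadjusted p of Ndfip2 was 0.00460 with the block in limma (adjusted p = 0.408) and 0.000975 with it in DESeq2. With 4 samples a group, the widest interval of a member, that of Nedd4, spanned -0.21 to 0.47 on the log2 scale.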

Other observations

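In 18 groups of 4 values (9 members in 2 groups), no sample stood apart from its group by Dixon's test at the 95% level, where chance gives about 0.9, and the highest ratio was 0.739. Over the 9 members the median absolute log2 fold change was 0.11, beside 0.12 over all genes tested, and the median range of the set means was 0.17, beside 0.33.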
